A study of Arabidopsis thaliana with 6 samples.

Results

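The type-A response regulators are 10 genes of Arabidopsis thaliana that encode short receiver-domain proteins of the cytokinin pathway. They were taken by their AGI codes, ARR3 to ARR9 and ARR15 to ARR17, from a table of 33602 genes, and all 10 were found. RNA was sequenced from whole seedlings of the Columbia (Col) ecotype, 12 days old, grown on plates that differed in the nitrogen source. All libraries shared 2 days of cold, growth at 22 °C and a cycle of 16 h light and 8 h dark. One group had 5 mM glutamate (Glu) and the other 5 mM ammonium nitrate (NH4NO3), each with 3 libraries, on 1/2 MS salts free of nitrogen with 0.5% sucrose. Per formula unit ammonium nitrate carries 2 nitrogen atoms and glutamate 1, so the source and the amount of nitrogen cannot be told apart.

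Cytokinins are plant hormones that carry information on nitrogen supply between root and shoot. They bind histidine kinase receptors in the membrane, and phosphate passes through histidine phosphotransfer proteins to response regulators in the nucleus. Type-B regulators are transcription factors that switch on type-A genes within minutes, and type-A proteins then damp the same pathway, so that type-A transcripts are widely used as a readout of cytokinin signalling and as its negative feedback. The family falls into 5 close pairs, ARR3 with ARR4, ARR5 with ARR6, ARR7 with ARR15, ARR8 with ARR9 and ARR16 with ARR17.

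The libraries held 49688724 to 63424574 reads on glutamate and 49520237 to 51409315 reads on ammonium nitrate, as recovered from the deposited values. The unit of all levels is RPKM, which divides reads by the length of the gene and the size of the library, and levels are given as mean ± SD over n = 3 libraries. Log2 fold changes are glutamate over ammonium nitrate on the log2(RPKM + 1) scale, which understates the change of low genes. They stand with their SE and with p-values from limma's moderated test, adjusted by the Benjamini-Hochberg method over the 20032 genes whose mean level was 1 RPKM or more. A gene is said to have risen or fallen where the adjusted p was under 0.05. All 10 members passed the filter on level, and the deposited share of multiply mapped reads was 0 for each of them. No label states that the libraries are from separate cultures, so the p-values reflect spread that could be technical in part or in full.

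On glutamate, 6 of the 10 type-A genes fell and 2 rose, and the remaining 2 did not pass the test. ARR7, ARR9 and ARR8 fell most, to between 0.278 and 0.464 of their level on ammonium nitrate, and ARR4, ARR5 and ARR6 fell less. ARR17 and ARR3 rose, 6.49-fold and 2.46-fold. ARR15 and ARR16 did not pass. Of all tested genes 71.8% were called, 35.0% higher and 36.8% lower, so the 8 calls among 10 members lie near what the whole table gave. The groups did not overlap for the same 8 members and for 76.1% of all tested genes. The sizes of the changes stood further out. A change of 2-fold or more, 1 unit on the log2 scale either way, was called higher for 2 members and lower for 3, where 9.52% and 5.54% of all tested genes were. With a pseudocount of 5 RPKM 0 members were called 2-fold higher and 1 lower, beside 5.20% and 2.95% of genes. The median absolute log2 fold change was 0.88 for the members and 0.37 for all tested genes, and the signed medians were -0.45 and -0.02.

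**Figure D1:**
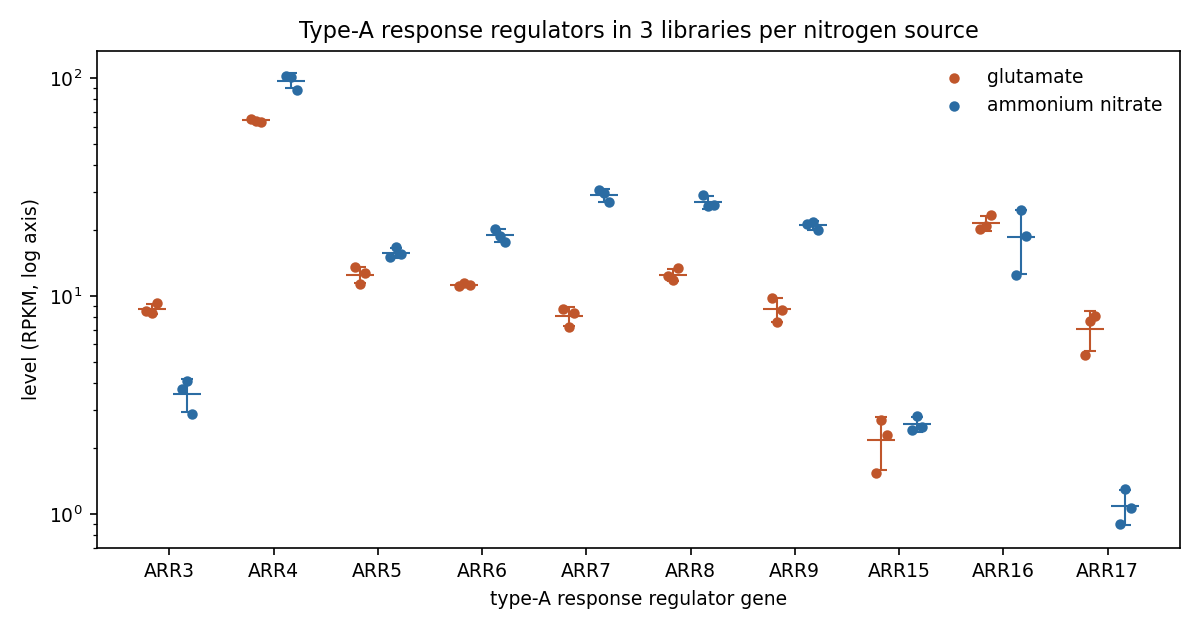
Level of each type-A gene in RPKM on a log axis. Points are the 3 libraries of each nitrogen source, glutamate left and ammonium nitrate right, and bars are the mean ± SD. ARR4 is the highest gene in every library, and the points of ARR15 and ARR16 overlap between the groups.

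Of the tested marker genes, 70% were called for root, near the 71.8% of all tested genes, and 100% for shoot. Over all tested genes 35.0% were higher and 36.8% lower. Of 14 root markers 10 reached the filter, and of these 6 rose, 1 fell and 3 did not pass. The list summed to 126 to 136 RPKM on glutamate and 77.5 to 96.8 RPKM on ammonium nitrate. CASP1 alone held 45.4 to 53.1 RPKM of this sum on glutamate and 25.7 to 37.3 RPKM on ammonium nitrate. Of 13 shoot markers 9 reached the filter and all 9 fell, with sums of 73.2 to 74.1 RPKM on glutamate and 151 to 156 RPKM on ammonium nitrate. The shoot stem cell genes WUS and CLV3 had 0 reads in the ammonium nitrate libraries, and no other marker was at 0 throughout a group. Both organs were thus present, as the label whole seedling says. In RNA of whole seedlings, fewer cells of a type and less RNA per cell cannot be told apart, and the part of these markers in the changes of the type-A genes was not tested.

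The upstream sequences of ARR7, ARR15, ARR16 and ARR17 are shown because these 4 genes make up the 2 pairs in which 1 member changed most and its relative did not pass. Each is the 250 bases before the annotated gene start, 5′ to 3′ on the gene's strand, read from the TAIR10.1 genome with its RefSeq annotation. Capitals mark AGATT and AGATCT on either strand (AATCT is AGATT read from the other strand), short elements of the kind that type-B regulators are known to bind. The windows lie at chr1:6579315-6579564 on the minus strand for ARR7, at chr1:28133026-28133275 on the minus strand for ARR15, at chr2:16969423-16969672 on the plus strand for ARR16 and at chr3:20905014-20905263 on the plus strand for ARR17.
ARR7: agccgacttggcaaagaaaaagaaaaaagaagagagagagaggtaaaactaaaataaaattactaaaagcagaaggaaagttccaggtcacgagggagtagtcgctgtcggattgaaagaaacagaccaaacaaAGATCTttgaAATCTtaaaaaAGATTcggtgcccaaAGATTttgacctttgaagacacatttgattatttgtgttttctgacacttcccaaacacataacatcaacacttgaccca
ARR15: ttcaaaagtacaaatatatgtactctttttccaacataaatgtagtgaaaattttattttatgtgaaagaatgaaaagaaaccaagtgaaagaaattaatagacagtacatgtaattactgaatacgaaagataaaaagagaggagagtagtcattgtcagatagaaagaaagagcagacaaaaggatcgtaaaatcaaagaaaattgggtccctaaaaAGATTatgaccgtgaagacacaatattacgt
ARR16: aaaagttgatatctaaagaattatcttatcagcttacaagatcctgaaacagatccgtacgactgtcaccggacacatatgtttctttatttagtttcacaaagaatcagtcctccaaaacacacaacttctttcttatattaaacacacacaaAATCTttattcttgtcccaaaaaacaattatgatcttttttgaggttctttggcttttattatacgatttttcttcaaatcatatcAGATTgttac
ARR17: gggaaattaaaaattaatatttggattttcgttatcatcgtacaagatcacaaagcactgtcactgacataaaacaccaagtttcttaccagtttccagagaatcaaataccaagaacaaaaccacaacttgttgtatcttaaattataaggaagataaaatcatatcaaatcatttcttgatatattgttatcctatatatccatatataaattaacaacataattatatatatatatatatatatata
The ARR7 window held 3 matches to AGATT and 1 to AGATCT, the ARR15 window 1 to AGATT, the ARR16 window 2 to AGATT and the ARR17 window none. Matches of these motifs cannot overlap each other. Among all members, 7 of 10 windows held AGATT and 1 held AGATCT, beside 63.2% and 6.57% of 32834 windows of the same length. ARR7, with the largest fall, had 4 matches in all, and ARR6, which fell less, had 3 of AGATT. ARR9 and ARR8, which fell most after ARR7, had 2 and 1 to AGATT. ARR4 and ARR5, which also fell, had 0 matches to either motif, and ARR3, which rose, had 1 to AGATT. The share of members with AGATT lay near that of all genes. A match is a description of these letters and not a binding site.

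ARR7 (AT1G19050), which with ARR15 restrains cytokinin signalling in the shoot meristem and the embryonic root, had the largest fall of the family. It stood at 8.70, 7.22 and 8.40 RPKM on glutamate, against 30.8, 29.6 and 26.9 RPKM on ammonium nitrate. The lowest ammonium nitrate library was far above the highest glutamate library. The means were 8.10 ± 0.785 RPKM on glutamate and 29.1 ± 1.98 RPKM on ammonium nitrate (SD, n = 3 each), 3.59-fold lower on glutamate, with a log2 fold change of -1.73 ± 0.08 (SE, limma adjusted p = 6.55e-07). Only 0.824% of tested genes had a lower log2 fold change. ARR15 (AT1G74890), its closest relative, was at 1.53, 2.70 and 2.31 RPKM on glutamate, against 2.43, 2.80 and 2.51 RPKM on ammonium nitrate. These ranges overlapped, and the values rest on 58 to 94 reads per glutamate library and 74 to 82 reads per ammonium nitrate library. The log2 fold change of ARR15 was -0.19, with a 95% interval of -0.51 to 0.14 (limma adjusted p = 0.258), which leaves room for a modest fall or a small rise.

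ARR8 (AT2G41310) and ARR9 (AT3G57040) fell by similar amounts. In other work these genes act as negative regulators of cytokinin responses and respond less sharply to added cytokinin than ARR5, ARR6 or ARR7. ARR8 had 12.4, 11.8 and 13.4 RPKM on glutamate, against 29.1, 25.8 and 26.2 RPKM on ammonium nitrate, a log2 fold change of -1.05 ± 0.07 (SE, limma adjusted p = 3.35e-06). ARR9 had 9.79, 7.60 and 8.67 RPKM on glutamate, against 21.5, 22.0 and 20.05 RPKM on ammonium nitrate, a log2 fold change of -1.20 ± 0.09 (SE, limma adjusted p = 5.95e-06). Neither gene's groups overlapped, and the ratios of mean RPKM were 2.16-fold lower for ARR8 and 2.44-fold lower for ARR9 on glutamate.

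ARR4 (AT1G10470), which binds the light receptor phytochrome B, was the most abundant member in all 6 libraries. Its level was 65.3, 63.8 and 63.1 RPKM on glutamate, against 103, 102 and 88.7 RPKM on ammonium nitrate. All glutamate libraries lay below all ammonium nitrate libraries, with a log2 fold change of -0.60 ± 0.06 (SE, limma adjusted p = 5.01e-05). ARR3 (AT1G59940), the relative of ARR4 that shares a role in the pace of the circadian clock, went the other way. It had 8.57, 8.35 and 9.29 RPKM on glutamate, against 3.73, 4.07 and 2.86 RPKM on ammonium nitrate. The groups were far apart, and the log2 fold change was 1.11 ± 0.11 (SE, limma adjusted p = 2.99e-05), or 0.69 with a pseudocount of 5 RPKM, where it also passed.

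ARR5 (AT3G48100) and ARR6 (AT5G62920), strongly cytokinin-induced genes of which ARR5 drives a common reporter of cytokinin response, fell less than ARR7 to ARR9. ARR6 had 11.1, 11.5 and 11.2 RPKM on glutamate, against 20.4, 18.9 and 17.8 RPKM on ammonium nitrate, a log2 fold change of -0.70 ± 0.06 (SE, limma adjusted p = 1.66e-05). ARR5 had 13.5, 11.4 and 12.7 RPKM on glutamate, against 15.1, 16.8 and 15.5 RPKM on ammonium nitrate. The gap between the groups was small for ARR5, whose log2 fold change of -0.31 ± 0.07 was the smallest of the 8 called (SE, limma adjusted p = 0.00522).

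ARR17 (AT3G56380) and ARR16 (AT2G40670) encode the shortest proteins of the family and have been linked to cell divisions of the stomatal lineage. ARR17 had 5.37, 7.70 and 8.13 RPKM on glutamate, against 0.898, 1.30 and 1.07 RPKM on ammonium nitrate, on 152 to 247 and 20 to 28 reads per library. The groups did not overlap, and the gene stood close to ARR7 on glutamate but lowest of the family on ammonium nitrate. Its log2 fold change was 1.94 ± 0.15 (SE, limma adjusted p = 7.58e-06), higher than that of 97.1% of tested genes. It was 2.58 with a pseudocount of 0.1 RPKM and 0.98 with one of 5 RPKM, and passed with each. ARR16 had 20.4, 21.1 and 23.6 RPKM on glutamate, against 12.5, 24.8 and 18.9 RPKM on ammonium nitrate. Its ammonium nitrate libraries spread more widely than those of any other member, with an SD of 32.7% of the mean, and spanned all the glutamate values. The log2 fold change was 0.25, with a 95% interval of -0.22 to 0.71 (limma adjusted p = 0.295). Without ammonium nitrate replicate 2 it was 0.47 and passed (limma adjusted p = 0.0299), and over the other alternatives the adjusted p went up to 0.995.

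**Figure D2:**
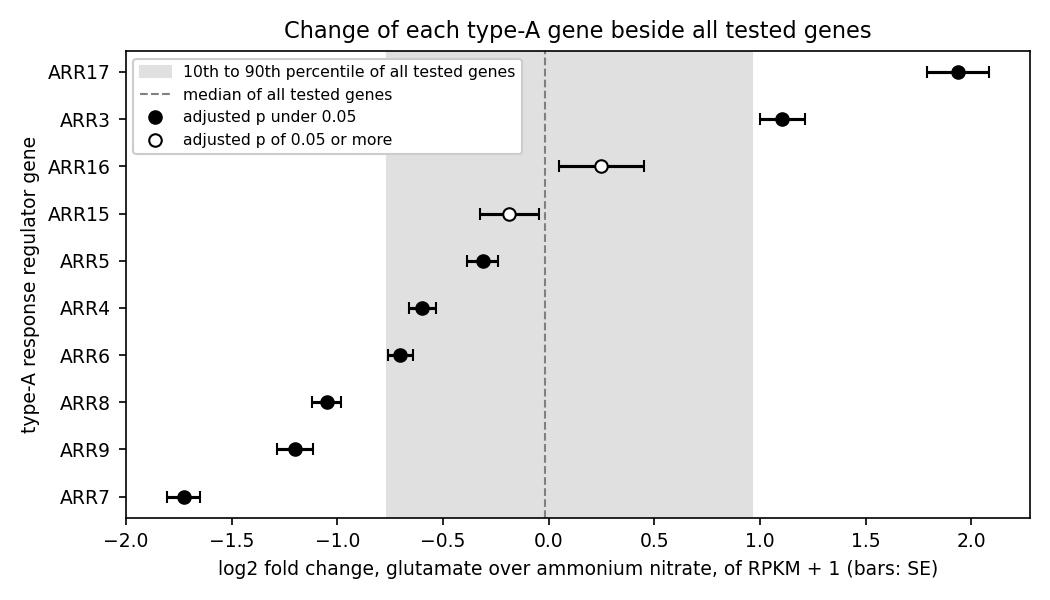
Log2 fold change of each type-A gene, glutamate over ammonium nitrate, on the log2(RPKM + 1) scale, with SE bars; filled points passed the test. The grey band spans the 10th to 90th percentile of all tested genes, -0.77 to 0.96, and ARR7, ARR8, ARR9, ARR3 and ARR17 lie outside it.

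The make-up of the family's transcripts differed between the nitrogen sources. Summed over the 10 genes, the level was 157, 153 and 161 RPKM on glutamate, against 239, 248 and 221 RPKM on ammonium nitrate, and without ARR4 the means were 92.8 ± 4.41 and 138 ± 7.28 RPKM (SD, n = 3 each). ARR4 held 40.9% ± 1.42 of the sum on glutamate and 41.4% ± 1.36 on ammonium nitrate. ARR7 held 5.16% ± 0.424 on glutamate and 12.4% ± 0.475 on ammonium nitrate (SD, n = 3 each). In the other direction, ARR16 held 13.8% ± 0.849 on glutamate and 7.93% ± 2.44 on ammonium nitrate, and ARR17 held 4.50% ± 0.932 and 0.462% ± 0.0772. The level of ARR16 itself did not pass the test, while the sum that its share is taken from was lower on glutamate. ARR3 held 5.57% ± 0.181 of the sum on glutamate and 1.499% ± 0.180 on ammonium nitrate.

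By mean level on glutamate the order was ARR4, ARR16, ARR5, ARR8, ARR6, ARR3, ARR9, ARR7, ARR17 and ARR15. In that order the ranges of ARR5 and ARR8 overlapped, as did those of ARR3 and ARR9, ARR9 and ARR7, and ARR7 and ARR17. On ammonium nitrate the order was ARR4, ARR7, ARR8, ARR9, ARR6, ARR16, ARR5, ARR3, ARR15 and ARR17, and the ranges overlapped for ARR7 and ARR8 and for each neighbouring pair from ARR9 to ARR5. ARR7 thus had rank 8 on glutamate and rank 2 on ammonium nitrate. Levels between genes depend on the deposited gene lengths, which differ from the exons annotated in TAIR10.1. The deposited length is 640 bases for ARR16, where the annotated exons cover 2076, and 621 for ARR15 and 462 for ARR17, where the coding sequence alone covers 621 and 465. A gene's ratio of mean RPKM between groups does not depend on its length, but its log2(RPKM + 1) fold change and the filter do.

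The close pairs were compared within each library by the log2 ratio of their RPKM + 1. The ratios did not overlap between groups for 4 of the 5 pairs. The share for gene pairs in general was not computed, and that for single genes was 76.1%. The difference between groups, glutamate minus ammonium nitrate, was 1.70 ± 0.08 for ARR3 over ARR4 and -1.69 ± 0.23 for ARR16 over ARR17 (SE, n = 3 each). With a pseudocount of 0.1 or 5 RPKM in place of 1, the difference for ARR16 over ARR17 was -2.32 or -0.78. With 1 RPKM added, it was -1.54 ± 0.24 for ARR7 over ARR15 and 0.39 ± 0.11 for ARR5 over ARR6 (SE, n = 3 each). Each of these 4 differences had an exact two-sided permutation p = 0.1, the smallest that 3 against 3 allows, and 0.125 after adjustment over 5 pairs, so none can pass at 0.05. ARR8 over ARR9 was at 0.49 ± 0.15 on glutamate and 0.34 ± 0.10 on ammonium nitrate (SD, n = 3 each), which overlapped, and the difference of 0.15 ± 0.11 (SE) had an exact permutation p = 0.3.

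**Figure D3:**
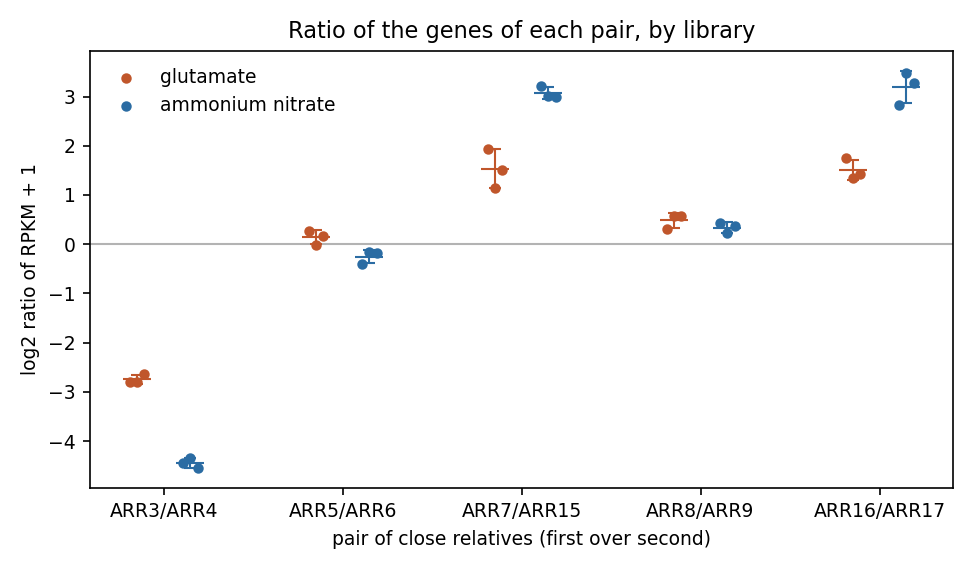
Log2 ratio of RPKM + 1 of the genes in each close pair, first over second, in each library, glutamate left and ammonium nitrate right, with mean ± SD. The ratios lie apart between groups for every pair except ARR8 with ARR9.

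The rest of the cytokinin pathway was set beside the family through lists of 64 other genes, of which 49 reached the filter. Of these 20 rose, 20 fell and 9 did not pass, which at 81.6% called is again near the 71.8% of all tested genes. The median log2 fold change of the 49 was -0.01. By list, 66.7% of the tested phosphotransfer, type-B and cytokinin response factor genes were called, 80% for breakdown and 84.6% for synthesis. For the receptor, KMD F-box, transport and further cytokinin-induced lists it was 100%, of 3, 4, 2 and 4 tested genes. By direction, 35.0% of all tested genes were higher and 36.8% lower. The lists are small and were not tested as sets, so no list is read as set apart from all tested genes.

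Among synthesis genes, 13 of 19 were tested, 6 rose and 5 fell. IPT3, an isopentenyltransferase whose transcript is known to be induced by nitrate, fell to 2.11 ± 0.233 RPKM on glutamate, against 12.6 ± 1.28 RPKM on ammonium nitrate. IPT9, which acts on tRNA, fell to 8.84 ± 0.777 RPKM on glutamate, against 17.2 ± 0.636 RPKM on ammonium nitrate. Of the LOG genes, which release the active base from its nucleotide, 6 of 7 tested rose, beside 35.0% of all tested genes. LOG5 rose to 20.5 ± 2.92 RPKM on glutamate, against 4.03 ± 1.01 RPKM on ammonium nitrate, and LOG4 rose 3.76-fold. LOG2, among the 6, was at 1.64 ± 0.682 RPKM on glutamate and 0.471 ± 0.321 RPKM on ammonium nitrate. It reached the filter only through its level on glutamate, so its call is weak support for the count. LOG3, among the 6, did not pass without glutamate replicate 1 or 2 or ammonium nitrate replicate 1 (limma adjusted p = 0.0572 to 0.0727). IPT5, an isopentenyltransferase among the 5 that fell, did not pass without glutamate replicate 1 or 3 or ammonium nitrate replicate 1 (0.0518 to 0.0548). Of 7 CKX genes for breakdown 5 were tested, 2 rose and 2 fell. CKX5 stood at 5.25 ± 0.587 RPKM on glutamate and 1.09 ± 0.169 RPKM on ammonium nitrate. CKX2 rose 2.92-fold, to 2.44 ± 0.543 RPKM on glutamate, against 0.838 ± 0.262 RPKM on ammonium nitrate. CKX2 too reached the filter only through its level on glutamate. CKX4, often used as a cytokinin response gene, stood at 1.38 ± 0.207 RPKM on glutamate and 5.79 ± 0.699 RPKM on ammonium nitrate, and CKX6 also fell, with a log2 fold change of -0.91. Of the transporters, ABCG14, which loads cytokinin into the xylem, rose 1.27-fold. PUP14, which imports it into cells, had 80.9, 49.8 and 79.1 RPKM on glutamate, against 49.0, 51.2 and 48.4 RPKM on ammonium nitrate. Its groups overlapped, since glutamate replicate 2 lay among the ammonium nitrate libraries. PUP14 passed narrowly (limma adjusted p = 0.0359) and missed the threshold without any 1 library other than glutamate replicate 2 (0.0626 to 0.119). It also missed the threshold with no filter on level (0.0672).

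In the receptor, phosphotransfer and type-B lists, the receptor genes AHK3 and AHK4 rose slightly and AHK2 fell slightly. Their log2 fold changes were 0.22, 0.24 and -0.25. AHK4 missed the threshold without glutamate replicate 3 (limma adjusted p = 0.0627). AHK2 missed it without glutamate replicate 1 or 3 or ammonium nitrate replicate 2 or 3 (0.0638 to 0.0718) and with equal totals per library (0.139). Of the 6 genes in the phosphotransfer list 4 rose and 2 did not pass, where 35.0% of all tested genes rose. AHP1 stood highest, at 126 ± 11.1 RPKM on glutamate and 50.1 ± 9.13 RPKM on ammonium nitrate. AHP5, AHP2 and AHP3 rose by log2 fold changes of 0.67, 0.36 and 0.19. Of 11 type-B genes 6 were tested, of which 2 rose and 2 fell. ARR2 rose to 20.1 ± 0.644 RPKM on glutamate, against 10.2 ± 0.289 RPKM on ammonium nitrate, and ARR10 1.48-fold, whereas ARR14 and ARR11 fell by 0.59 and 0.19 on the log2 scale. ARR11 missed the threshold without any 1 library other than ammonium nitrate replicate 1 (limma adjusted p = 0.0535 to 0.0797) and with equal totals per library (0.227). The type-C genes ARR22 and ARR24 and the type-B genes ARR13, ARR18, ARR19, ARR20 and ARR21 stayed at or under 0.0687 RPKM in every library and were not tested.

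The KMD genes encode F-box proteins that mark type-B regulators for breakdown. KMD1 fell to 26.7 ± 2.36 RPKM on glutamate, against 72.3 ± 7.88 RPKM on ammonium nitrate, KMD4 fell to 44.9 ± 4.13 RPKM on glutamate, against 95.4 ± 5.77 RPKM on ammonium nitrate, and KMD2 rose 1.47-fold. KMD3 fell by 0.25 on the log2 scale. It missed the threshold without any 1 library other than ammonium nitrate replicate 3 (limma adjusted p = 0.0582 to 0.108). The same held with equal totals per library (0.161) and with no filter on level (0.0556). Of the 6 cytokinin response factor genes, 4 fell and none rose, beside 36.8% and 35.0% of all tested genes. CRF2 fell to 3.61 ± 0.104 RPKM on glutamate, against 9.61 ± 0.643 RPKM on ammonium nitrate, and CRF5, CRF6 and CRF1 by 0.66, 0.39 and 0.48 on the log2 scale. Of 4 further cytokinin-induced genes, the chloroplast development factors GATA21 (GNC) and GATA22 (CGA1) and the auxin repressor SHY2 fell, by 1.85, 1.67 and 1.12 on the log2 scale, and LBD3 rose 1.52-fold.

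**Figure D4:**
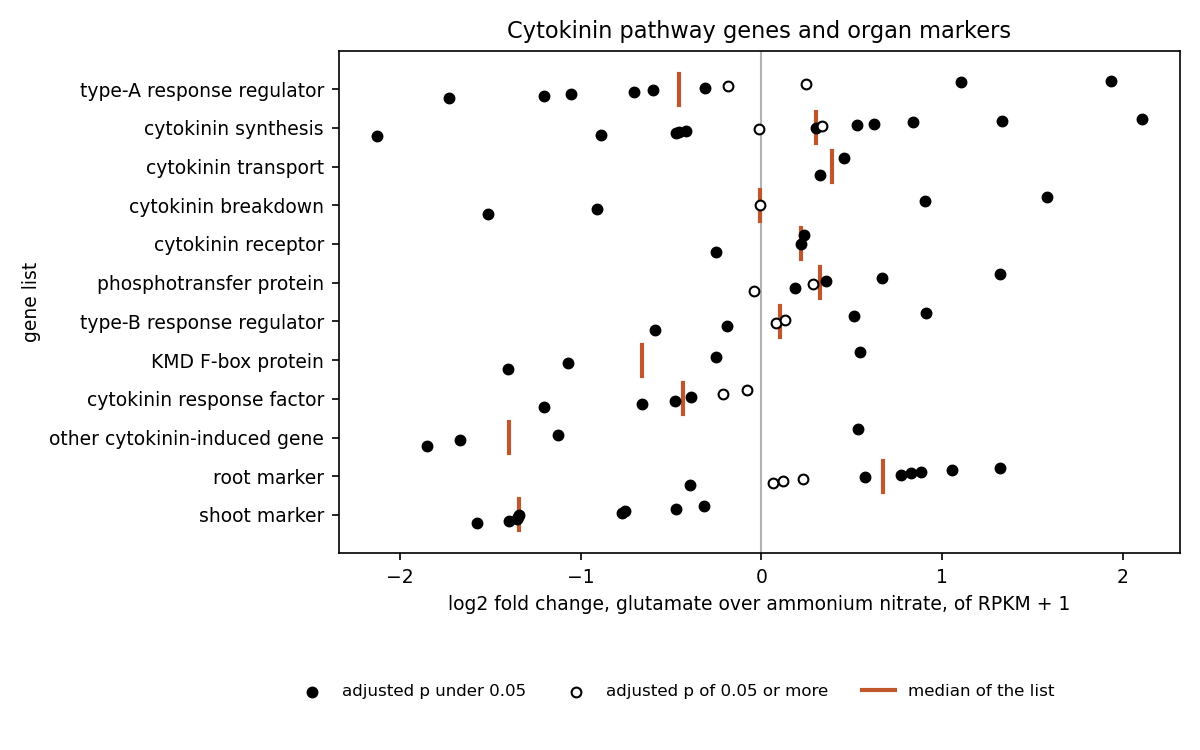
Log2 fold change, glutamate over ammonium nitrate, of every tested gene of the cytokinin lists and of the root and shoot marker lists; filled points passed the test and the coloured bar is the median of the list. The medians are -0.45 for the type-A genes, -0.43 for the cytokinin response factors, 0.32 for the phosphotransfer genes and -1.34 for the shoot markers.

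Outside the lists, the gene whose profile was most like the mean log2(RPKM + 1) of the 10 members was SBH2 (AT1G14290), a sphingoid base hydroxylase gene, with Pearson r = 0.997 over the 6 libraries, followed by AT1G20670 and AT5G60190 with r = 0.995 each. SBH2 was at 22.8 ± 1.42 RPKM on glutamate and 29.6 ± 2.94 RPKM on ammonium nitrate (SD, n = 3 each). The 6 points fall into the study's groups, and 533 of 19954 genes had r of at least 0.95, so such likeness was not particular to the genes named. The mean also averages members that rose and fell.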

How the data were processed

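RNA of whole seedlings was sequenced in 3 libraries per nitrogen source, prepared with the Illumina TruSeq kit, per the labels' protocols. Levels were deposited as RPKM, which the authors scaled by TMM, as the table's name says, with a length for each gene. A deposited fraction, by its name the largest share of multiply mapped reads, was used to leave out genes in 1 alternative. The submitters' processing notes name TAIR10 and SAMtools; the sources used here name no aligner or counter and do not say whether mates of a pair were counted separately. RPKM times length took steps of whole reads with 0.5 read added; within 0.05 read, 100% of genes without multiply mapped reads came out whole.

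Groups came from the labels. RPKM values plus 1 were tested on the log2 scale with limma 3.58.1 in R 4.3.3, with an intensity trend, two-sided, after tests on simulated data. Pair ratios used exact permutation tests (scipy 1.17.1). Named genes were all members, all receptors, up to 4 genes per other list with the smallest p, and the 3 profiles most like the members' mean. Members and lists were chosen with earlier results of these data known. Alternatives were the pseudocount, filter, scaling, trend, multiply mapped genes, replicate block and leaving out each library. All 101 listed identifiers matched the TAIR10.1 annotation, whose coordinates are used for upstream sequences only. The members had 20 to 6457 reads per library.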

Additional observations from a re-analysis of the deposited data

How the results depend on the processing

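Of 238 gene counts and type-A fold changes recomputed under the alternatives, 236 kept their direction and their side of the threshold, or for counts stayed within 1.5 times. The 40 recomputed pair differences kept their direction; their test cannot pass in this design. With a mean of at least 5 RPKM required, ARR17 and ARR15 were no longer tested and the type-A genes that rose numbered 1 in place of 2. The count of members at least 2-fold higher was 1 without ammonium nitrate replicate 3, and of those at least 2-fold lower 2 without ammonium nitrate replicate 1 and with equal totals per library. ARR16 passed without ammonium nitrate replicate 2, at a log2 fold change of 0.47; leaving out each library in turn gave 0.00088 to 0.47 for it, 2 to 3 type-A genes higher and 6 lower, and 18 to 20 other cytokinin genes higher and 16 to 18 lower. For ARR15 these fits gave -0.30 to -0.03. With equal totals per library 8439 genes were higher and 5992 lower (with the TMM scaling 7013 and 7377), with the same type-A calls. Replicates with the same number did not deviate together (correlations of 0.10, 0.05 and -0.01 across genes), and a fit with the replicate block gave 6929 genes higher and 7265 lower and the same type-A calls. The 95% interval of ARR15 includes a fall as large as that of ARR5. The interval of ARR16 includes a rise of that size but not such a fall.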
